A study of Mus musculus with 8 samples.

Results

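Macrophages export cholesterol to lipoproteins outside the cell. Followed here were 10 genes of that route or related to it, in bone marrow-derived macrophages (BMDM) treated with bilirubin. They are the apolipoproteins *Apoe*, *Apoc1* and *Apoc2*, the exporters *Abca1* and *Abcg1*, the oxysterol-making enzyme *Ch25h*, the liver X receptors (LXR) *Nr1h3* (LXRα) and *Nr1h2* (LXRβ), and the LXR target genes *Mylip* and *Lpcat3*. The genes were chosen by symbol from the 53819 rows of the gene count table, with the difference between bilirubin and vehicle cultures already known. Their differences are therefore given as a description, and no test result on them is read as evidence. Of the 10 genes, 9 had enough counts to enter the comparison of 13722 genes and 1, *Apoc1*, did not.

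Bone marrow came from 4 female BALB/cJ mice aged 8 weeks, and cells of each mouse were cultured apart from those of the others. Macrophage colony-stimulating factor (M-CSF, 25 ng/mL) was given to all cultures, and differentiation lasted 5 days. A culture of each mouse then received 2.5 µM bilirubin, a product of heme breakdown, and another received DMSO vehicle, both for 48 hours. Poly(A)-selected RNA of the 8 cultures was sequenced, and the 4 libraries of each treatment carry a culture number, read here as the mouse. The comparison asks what bilirubin did to macrophage gene expression, with each bilirubin culture set against the vehicle culture of its own mouse.

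Cholesterol is carried out of macrophages by ABC transporters, ABCA1 loading it onto lipid-poor apolipoproteins and ABCG1 onto lipoprotein particles. Apolipoprotein E, secreted by macrophages, accepts cholesterol and is a ligand of lipoprotein receptors. LXRα and LXRβ are nuclear receptors that sense oxysterols, pair with retinoid X receptors (RXR) and bind a repeated hexamer, the DR4 element, near genes such as *Abca1*, *Abcg1*, *Apoe*, *Mylip* and *Lpcat3*.

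Libraries held between 34142781 and 47071714 counts on genes, the lowest and highest being the bilirubin and vehicle libraries of mouse 1. CPM below are counts divided by library size, scaled by edgeR's TMM method for library composition, and were used to compare libraries for a gene. TPM, which also divide by transcript length, were used to compare genes. A gene is referred to as called where its adjusted p was under 0.05 by edgeR (quasi-likelihood, a model of treatment and mouse, Benjamini-Hochberg over all 13722 genes), and 1033 genes or 7.53% were called. The count was 686 without mouse in the model. It was 1910, 634, 377 and 441 without mouse 1, 2, 3 or 4. Higher with bilirubin were 616 genes (4.49%) and lower were 417 (3.04%), and the share of called genes that were higher was 59.63%, or 48.66% when scaling by library size alone. The median log2 fold change of all genes tested was -0.0018. Among the 9 genes followed here 5 were called, *Abca1* and *Nr1h3* as higher and *Apoe*, *Apoc2* and *Ch25h* as lower. Since the genes were chosen on this contrast, nothing is read from that count.

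The libraries carried macrophage markers at high levels, with all 7 listed markers tested and a summed level of 23910 to 24190 CPM in vehicle and 28230 to 30240 CPM in bilirubin cultures. Of these, *Lyz2* (lysozyme, log2 fold change 0.35), *Adgre1* (F4/80, 0.42) and *Itgam* (CD11b, 0.26) were called as higher. *Mrc1* (-0.40), *Fcgr1* (-0.20), *Cd68* (-0.16) and *Csf1r* (-0.02) had lower values and were not called. Most of the difference in the sum was *Lyz2*, with 18802 to 19353 CPM in vehicle and 23371.5 to 25317 CPM in bilirubin cultures. The 7 neutrophil markers summed to 10.9 to 13.7 CPM in vehicle and 19.1 to 31.9 CPM in bilirubin cultures. Most of that sum was *S100a8*, called as higher, with 10.6 to 13.1 CPM against 17.5 to 30.9 CPM. *S100a9* had 0 to 0.210 CPM in vehicle and 0.111 to 0.576 CPM in bilirubin cultures. *Ltf* reached 0.631 CPM in vehicle and 0.719 CPM in bilirubin cultures, and *Mpo*, not called, 0.298 and 0.449 CPM. *Elane* reached 0.16 CPM in vehicle and 0.055 CPM in bilirubin cultures, and *Ly6g* and *Camp* had 3 counts or fewer in every library. Dendritic cell markers summed to 0 to 0.159 CPM in vehicle and 0.194 to 0.597 CPM in bilirubin cultures. Most of that was *Zbtb46*, too low to be tested, with 0 to 0.159 CPM against 0.166 to 0.548 CPM. Lists of lymphoid, mast and erythroid cells reached at most 0.194 CPM in any library, and the stromal list 0.572 to 5.61 CPM. The part of these marker differences in the values below was not tested.

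**Figure D1:**
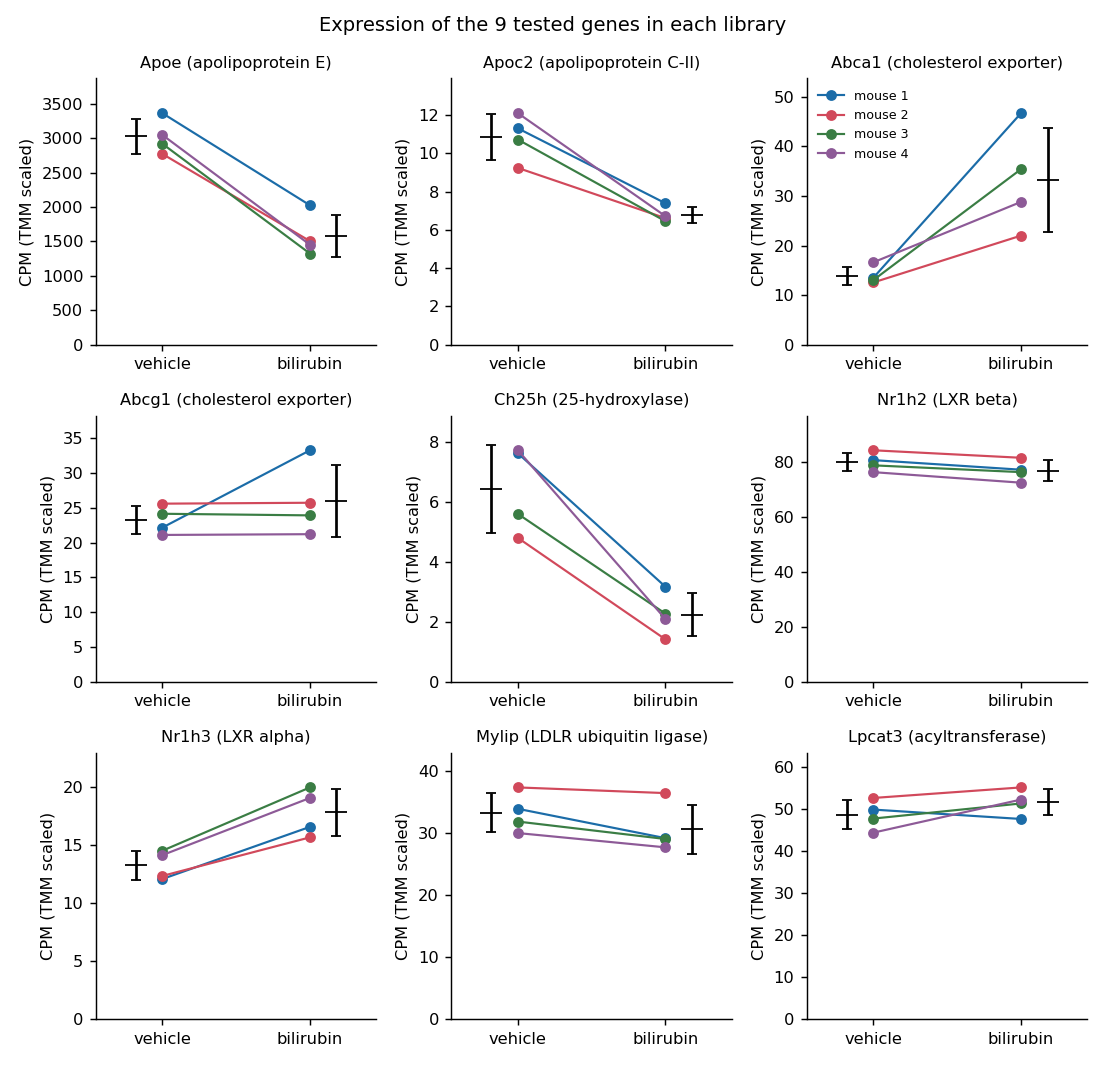
Expression of the 9 tested genes in each culture. Each panel plots CPM scaled by TMM on an axis from 0, lines join the vehicle and bilirubin culture of a mouse, and the bars beside the points show the group mean and SD (n = 4). *Apoe*, *Apoc2* and *Ch25h* fall on every line, *Abca1* and *Nr1h3* rise on every line, and *Abcg1* rises steeply in mouse 1 alone.

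*Apoe* was the most abundant of the 10 genes and its expression was lower with bilirubin in all 4 mice. It lies on chromosome 7 of GRCm39 (19430034 to 19434947, minus strand). Vehicle cultures of mice 1 to 4 had 3365, 2773, 2920 and 3049 CPM, and bilirubin cultures 2026, 1505, 1324 and 1452 CPM. The groups did not overlap, and every bilirubin culture lay below the lowest vehicle culture. The mean went from 3027 ± 252 CPM to 1577 ± 309 CPM (SD, n = 4), or 51.6% of the vehicle level (log2 fold change -0.96, SE 0.06, the standard error of the fit). Among mice the log2 difference was -0.73, -0.88, -1.14 and -1.07, and mouse 1, which had the highest level in both treatments, had the smallest difference. In bulk RNA, fewer expressing cells and less RNA per cell cannot be told apart.

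*Apoc2* encodes apolipoprotein C-II, the cofactor of lipoprotein lipase, and lies in the same gene cluster (chromosome 7, 19405504 to 19411877, minus strand). Its vehicle cultures had 11.3, 9.24, 10.7 and 12.1 CPM and its bilirubin cultures 7.39, 6.62, 6.46 and 6.72 CPM. Again the groups did not overlap, and the bilirubin cultures were closer to each other than the vehicle cultures were. The mean went from 10.8 ± 1.21 CPM to 6.80 ± 0.413 CPM (SD, n = 4), with a log2 fold change of -0.67 (SE 0.09). The log2 difference was -0.61, -0.48, -0.73 and -0.85 in mice 1 to 4. *Apoc2* overlaps *Apoc2l* (named *Gm44805* in the table) on the same strand, and Salmon assigned 0 counts to the latter in every library.

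*Apoc1* (apolipoprotein C-I; chromosome 7, 19422540 to 19427328) had 0, 2, 1 and 2 counts in vehicle cultures and 2, 3, 1 and 0 in bilirubin cultures. All libraries were at or under the floor of 3 counts, and no fold is given. It lies between *Apoe* and *Apoc2*, and the cluster thus held side by side a highly expressed gene, a gene at the floor and a modestly expressed gene.

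**Figure D2:**
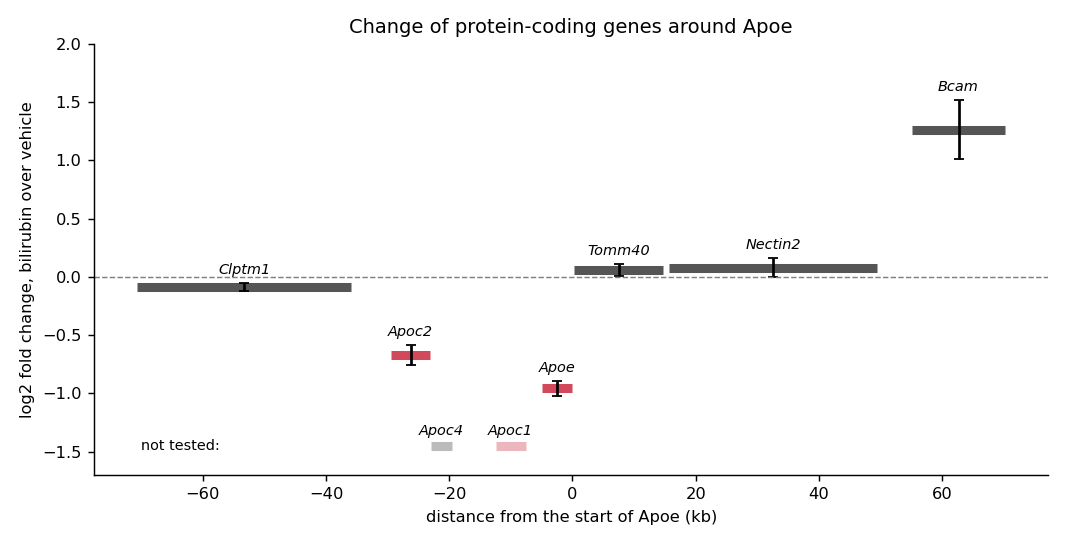
Log2 fold change of protein-coding genes around *Apoe* against distance from its start in kb. Boxes span each gene, bars are standard errors, red marks apolipoprotein genes among the 10, and *Apoc1* and *Apoc4*, too low to test, stand at the bottom at no value. *Apoe* and *Apoc2* lie below 0, *Clptm1*, *Tomm40* and *Nectin2* lie near 0, and *Bcam* lies above 0.

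Of 4 tested protein-coding genes that flank the cluster, *Bcam* was called and *Tomm40*, *Nectin2* and *Clptm1* were not. *Tomm40*, a mitochondrial import channel that ends 290 bases from the start of *Apoe*, had 68.3 CPM in vehicle and 71.3 CPM in bilirubin cultures (log2 fold change 0.06, SE 0.05, adjusted p = 0.575 by edgeR). *Nectin2*, an adhesion molecule on the same side, had 19.0 and 20.1 CPM (log2 fold change 0.08, SE 0.08, adjusted p = 0.662 by edgeR). *Clptm1*, beyond *Apoc2*, had 227 and 213 CPM (-0.09, SE 0.03, adjusted p = 0.154 by edgeR). *Bcam*, a laminin receptor 55108 bases away, rose from 0.616 to 1.48 CPM (log2 fold change 1.27, SE 0.25, adjusted p = 0.0201 by edgeR), with 0.494 to 0.742 CPM in vehicle and 1.29 to 1.84 CPM in bilirubin cultures. *Apoc4*, next to *Apoc2*, had 0 counts in every library.

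*Apoe* expression came mainly from 2 annotated transcripts. ENSMUST00000167646 made up 49.1% of its TPM in vehicle and 48.6% in bilirubin cultures, and ENSMUST00000174355 made up 40.7% and 40.9%. The shares moved by under 1 percentage point while the level was lower. *Apoc2* was nearly all from ENSMUST00000003074 (99.6% and 99.0%), and *Ch25h*, a gene with a single transcript, has no shares to compare.

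*Abca1* expression was higher with bilirubin in all 4 mice. The gene lies on chromosome 4 (53030787 to 53159900, minus strand). Vehicle cultures had 13.5, 12.6, 13.0 and 16.6 CPM and bilirubin cultures 46.7, 22.0, 35.4 and 28.8 CPM. The groups did not overlap, and the spread was much wider with bilirubin, with mouse 1 the highest and mouse 2 the lowest. The mean went from 13.9 ± 1.83 CPM to 33.2 ± 10.5 CPM (SD, n = 4), or 2.33-fold (log2 fold change 1.22, SE 0.16). By mouse the log2 difference was 1.78, 0.81, 1.44 and 0.79. Without mouse 1 the log2 fold change was 1.02. The full-length transcript ENSMUST00000030010 made up 73.7% of *Abca1* TPM in 1 vehicle library and the whole of it in the other 7 libraries.

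*Abcg1*, the partner exporter (chromosome 17, 31276649 to 31336969, plus strand), differed mainly in mouse 1. Vehicle cultures had 22.2, 25.6, 24.2 and 21.1 CPM and bilirubin cultures 33.3, 25.7, 23.9 and 21.2 CPM. The log2 difference was 0.59 in mouse 1 and 0.01, -0.01 and 0.01 in mice 2, 3 and 4. Over all mice the log2 fold change was 0.15 (SE 0.10), which was not called, and without mouse 1 it was -0.0024 (SE 0.05). The mouse with the largest *Abcg1* difference was also the mouse with the largest *Abca1* difference, while mouse 3, second for *Abca1*, had -0.01 for *Abcg1*. Their ratio within a culture, *Abca1* over *Abcg1* in TPM, was 0.183, 0.161, 0.318 and 0.401 in vehicle cultures. In bilirubin cultures it was 0.481, 0.317, 0.631 and 0.621, higher in each mouse, with overlapping groups. The leading *Abcg1* transcript, ENSMUST00000024829, made up 47.7% to 89.9% of its TPM in vehicle and 56.5% to 78.6% in bilirubin libraries. Vehicle cultures of mice 1 and 4 had 11.6 and 6.40 TPM of *Abcg1* at 22.2 and 21.1 CPM. The spread and overlap of the ratio thus depend on how TPM was split among transcripts, and are not read as differences between mice.

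**Figure D3:**
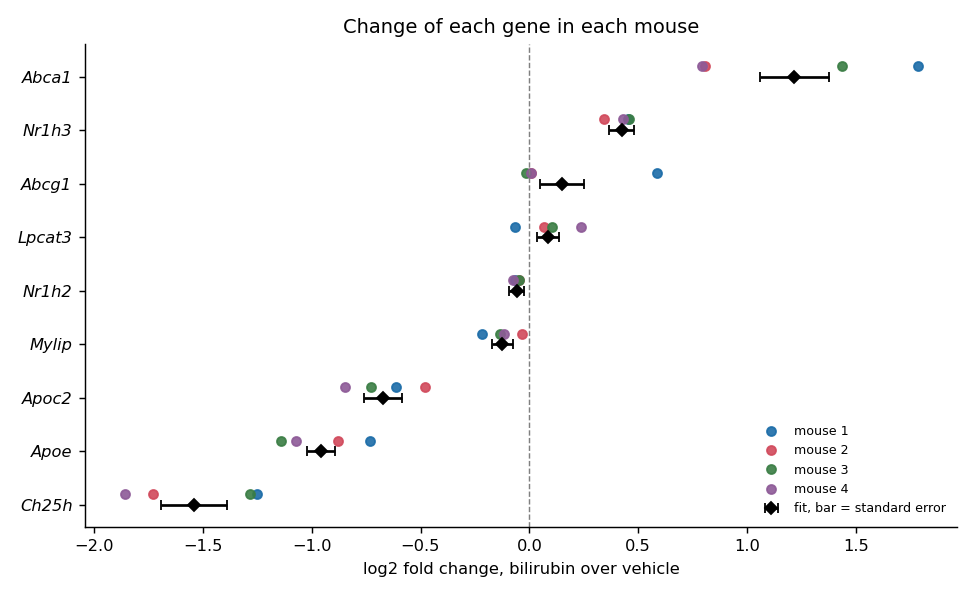
Log2 fold change of each gene, bilirubin over vehicle, for each mouse (coloured points) and in the fit over all mice (black diamonds, bars are standard errors), ordered from the largest rise to the largest fall. *Abca1* and *Nr1h3* lie right of 0 and *Apoc2*, *Apoe* and *Ch25h* left of 0 in all 4 mice. *Abcg1* has 1 point, mouse 1, far from the other three.

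*Ch25h*, which converts cholesterol to the oxysterol 25-hydroxycholesterol, had the largest fall of the 10 genes. It lies on chromosome 19 (34451178 to 34452564, minus strand). Vehicle cultures had 7.61, 4.79, 5.59 and 7.71 CPM and bilirubin cultures 3.17, 1.41, 2.27 and 2.09 CPM. The groups did not overlap although the vehicle cultures themselves were spread widely. Bilirubin cultures stood at 34.4% of the vehicle level (log2 fold change -1.54, SE 0.15), and the log2 difference was -1.25, -1.73, -1.28 and -1.86 in mice 1 to 4. Its counts are small, 181 to 362 in vehicle and 51 to 110 in bilirubin libraries. A long noncoding gene, *Gm26902*, overlaps it on the opposite strand, and since no source used here states that counting used strand, reads of the pair may not be told apart. The same holds for *Nr1h3*, whose start overlaps *Acp2* (log2 fold change 0.36, adjusted p = 0.00296 by edgeR) on the opposite strand and *Gm13783* on its own strand, for *Lpcat3* with *Emg1* (0.07), and for *Apoe* with *Gm71725*, a noncoding gene not in the quantified annotation.

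Placed among all 13722 genes tested, *Ch25h* had the 23rd largest fall by log2 fold change, *Apoe* the 103rd and *Apoc2* the 261st, and *Abca1* had the 137th largest rise. *Nr1h3* ranked 791 among rises. *Apoe* differed from these in abundance, with the 13th highest mean TPM in vehicle cultures, where *Ch25h* ranked 8568 and *Abca1* 10801.

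*Nr1h3*, encoding LXRα, was higher with bilirubin by a similar amount in each mouse (chromosome 2, 91014394 to 91033417, minus strand). Vehicle cultures had 12.1, 12.3, 14.5 and 14.1 CPM and bilirubin cultures 16.5, 15.6, 19.9 and 19.0 CPM. No bilirubin culture was as low as the highest vehicle culture. The level with bilirubin was 1.34-fold that of vehicle (log2 fold change 0.42, SE 0.06), and the log2 difference was 0.46, 0.34, 0.46 and 0.43 in mice 1 to 4. This was the narrowest spread among the 5 called genes, with an SD of 0.0542 over mice against 0.490 for *Abca1*.

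*Nr1h2*, encoding LXRβ, was the more abundant receptor and was not called (chromosome 7, 44199036 to 44203406, minus strand). Vehicle cultures had 80.8, 84.4, 78.9 and 76.4 CPM and bilirubin cultures 77.3, 81.7, 76.4 and 72.6 CPM. The groups overlapped, though each bilirubin culture was below the vehicle culture of its mouse, with a log2 fold change of -0.06 (SE 0.03). That value was -0.08 when scaling by library size alone and -0.10 with an offset for transcript length. In TPM, *Nr1h2* exceeded *Nr1h3* 7.71, 6.59, 5.39 and 5.76 times in vehicle and 4.86, 5.43, 3.88 and 3.71 times in bilirubin cultures, lower with bilirubin in each mouse. *Nr1h2* TPM was spread over several transcripts, the leading ENSMUST00000073488 with 32.0% in vehicle and 34.8% in bilirubin cultures, and *Nr1h3* was led by ENSMUST00000002177 with 46.2% and 47.3%.

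The remaining LXR targets, *Mylip* and *Lpcat3*, were not called. *Mylip* encodes the ubiquitin ligase IDOL, which directs the LDL receptor to degradation (chromosome 13, 45543215 to 45565501, plus strand). Its vehicle cultures had 33.9, 37.4, 31.9 and 30.0 CPM and its bilirubin cultures 29.2, 36.5, 29.1 and 27.7 CPM. The groups overlapped and mouse 2 was high in both treatments, but each bilirubin culture was below its pair (log2 fold change -0.13, SE 0.05). *Lpcat3* encodes an acyltransferase that puts polyunsaturated fatty acids into phospholipids (chromosome 6, 124639765 to 124684440, plus strand). Its vehicle cultures had 49.9, 52.7, 47.8 and 44.4 CPM and its bilirubin cultures 47.7, 55.2, 51.4 and 52.3 CPM. It was higher in 3 mice and lower in mouse 1, with a log2 fold change of 0.09 (SE 0.05), which was -0.0024 with the length offset.

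**Figure D4:**
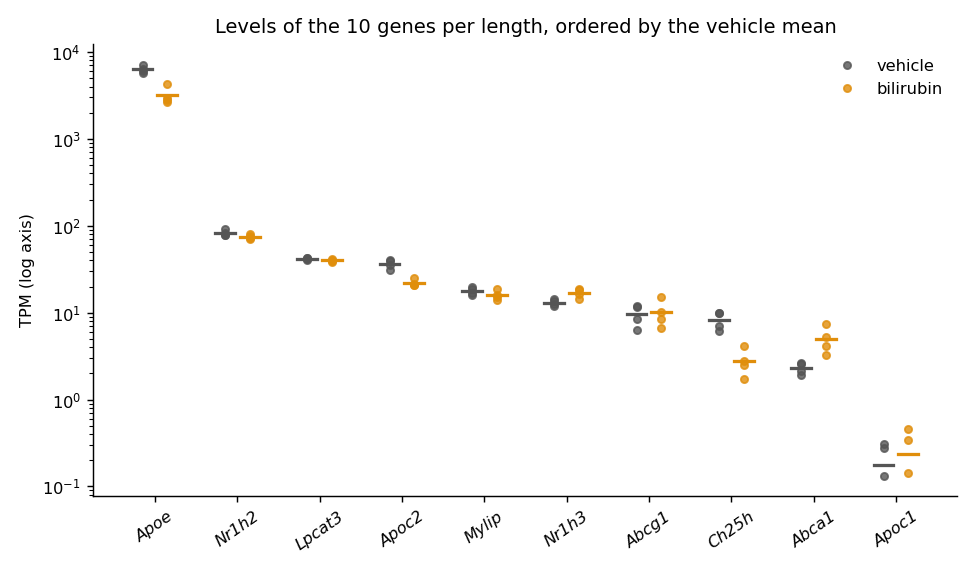
Levels of the 10 genes in TPM on a log axis, ordered by the vehicle mean. Points are libraries, horizontal bars are group means, and the libraries with *Apoc1* at 0 (1 in each group) cannot be drawn on a log axis. *Apoe* stands far above the other genes, *Abca1* passes *Ch25h* and *Nr1h3* passes *Mylip* with bilirubin.

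Per length, *Apoe* made up 96.8% of the summed TPM of the 10 genes in vehicle cultures, with a mean of 6319 TPM. It was followed by *Nr1h2* with 82.3 TPM, *Lpcat3* with 41.3, *Apoc2* with 36.5, *Mylip* with 18.0, *Nr1h3* with 13.1, *Abcg1* with 9.57, *Ch25h* with 8.23, *Abca1* with 2.31 and *Apoc1* with 0.179 TPM. Vehicle libraries overlapped between neighbours in that order for *Lpcat3* and *Apoc2*, for *Nr1h3* and *Abcg1*, and for *Abcg1* and *Ch25h*, and were separate for the other neighbours. With bilirubin, *Abca1* moved above *Ch25h* (5.01 against 2.79 TPM) and *Nr1h3* above *Mylip* (17.0 against 15.9 TPM) by their means, and the order of means was otherwise kept. Bilirubin libraries overlapped for both pairs, and in mouse 2 *Nr1h3* stood below *Mylip* (14.2 against 18.6 TPM). *Apoe* exceeded *Abca1* 2779 ± 511 times in vehicle and 670 ± 183 times in bilirubin cultures (SD, n = 4). Against *Apoc2* the same ratio was 174 ± 13.8 and 142 ± 18.4.

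The DNA before a transcript start of each gene was searched for the DR4 element to which LXR and RXR bind, spelled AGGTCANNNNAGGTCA, on both strands. For each gene the window was the 300 bases before the start of its most abundant transcript, and the 12 letters of the hexamers were compared. Since longer transcripts of *Apoe*, *Apoc1*, *Apoc2* and *Nr1h3* start further upstream, the windows of these 4 genes lie inside the annotated gene, that of *Apoe* in an exon of other *Apoe* transcripts, and do not cover the sequence before the outermost start. The window of *Lpcat3* lies in its gene for 142 bases. None of the 10 windows had a match with 2 mismatches or fewer, which 2.501% of the 13513 windows of tested genes had. Allowing 3 mismatches, 19.344% of those windows had a match, as did the windows of *Abca1*, *Abcg1* and *Lpcat3*. The 3 matches are shown as sequence alone, and nothing about the differences with bilirubin is read from them. Each is written on the strand that resembles the element, which is opposite to that of its gene.
Abca1, chr4:53159947-53159962, 62 to 47 bases before the start: GGGTTACTACCGGTCA
Abcg1, chr17:31276391-31276406, 270 to 255 bases before the start: AGGTAGCTTGAGATCA
Lpcat3, chr6:124639670-124639685, 237 to 222 bases before the start: AGGTTACTCTCGGTCG

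The whole *Abca1* window, on the minus strand of chr4:53159901-53160200 (GRCm39), is printed because this gene had the largest rise of the 10. Capitals mark the DR4-like match as it reads on the strand of the gene, close to the start.
Abca1 upstream window: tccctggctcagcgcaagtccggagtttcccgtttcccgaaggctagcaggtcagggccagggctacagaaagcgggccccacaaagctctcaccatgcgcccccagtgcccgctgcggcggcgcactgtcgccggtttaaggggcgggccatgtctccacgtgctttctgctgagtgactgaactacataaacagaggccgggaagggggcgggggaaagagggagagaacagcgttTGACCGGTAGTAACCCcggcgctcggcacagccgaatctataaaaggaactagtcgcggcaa

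The search was extended over the 29444 bases from *Apoc2* to *Apoe* (chr7:19405504-19434947), where elements far from a promoter could lie. It found 5 matches with 2 mismatches or fewer, 1.698 per 10000 bases against 1.221 over all of chromosome 7, and 0 with 1 mismatch or fewer. The match nearest to *Apoe* lay 2575 bases past its end, between *Apoe* and *Apoc1*, and is printed on the minus strand, the strand of both genes.
Between Apoe and Apoc1, chr7:19427444-19427459: GGGTCACTGTCGGTCA
A match is a run of letters and not a measured binding site, and no binding was measured in these cultures.

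Other genes of the pathway, listed by role without the 10 above, had 78 of 101 genes tested, of which 3 were called as higher and 8 as lower (14.1%, beside 7.53% of all genes tested). Their median log2 fold change was -0.03, and nothing particular to the lists is read from it. Called genes numbered 5 without mouse in the model, 19 with no filter on low counts, 4 with the length offset, and 22, 5, 3 and 4 without mouse 1, 2, 3 or 4. Among the 11 called genes, *Cav1* and *Lpcat4* were called under all 12 alternatives, *Lpcat2* under all but 1 (adjusted p = 0.0537 without mouse 3) and *Lrp1* under all but 1 (adjusted p = 0.088 with the length offset in edgeR). The other 7 lost their call under 4 to 7 of them.

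**Figure D5:**
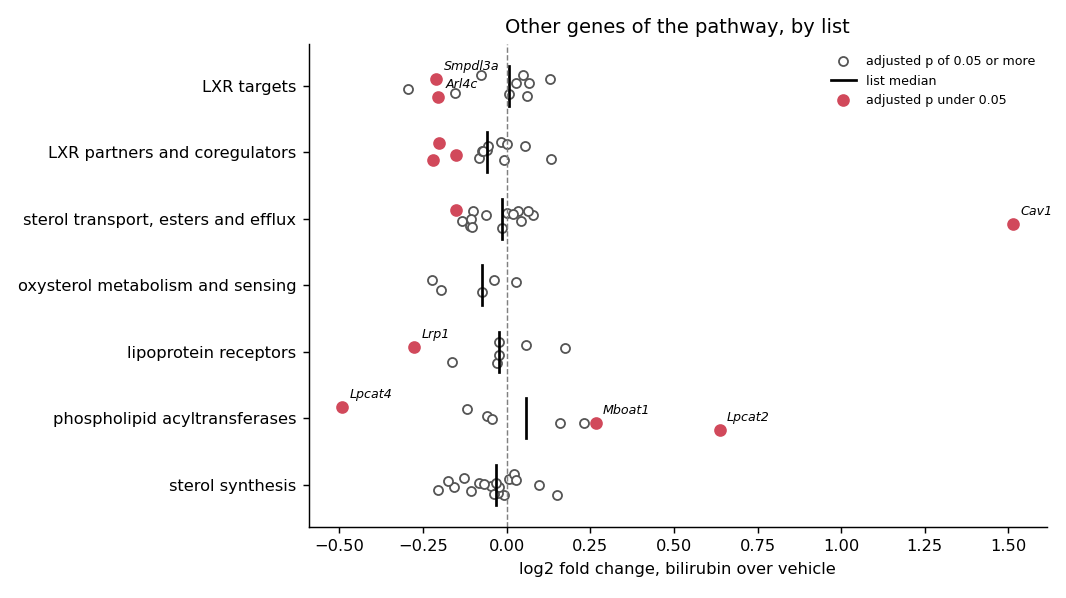
Log2 fold change, bilirubin over vehicle, of the tested genes in 7 lists of related function. Each point is a gene, filled where its adjusted p was under 0.05, and vertical bars mark list medians. Most genes lie within 0.25 of 0, and *Cav1* stands far to the right.

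Among 13 further LXR targets 11 were tested, 0 were called as higher and 2 as lower, with a median log2 fold change of 0.0070. *Smpdl3a*, a phosphodiesterase, went from 596 ± 29.3 to 517 ± 56.1 CPM (log2 fold change -0.21, adjusted p = 0.0339 by edgeR) and *Arl4c*, a small GTPase, from 179 ± 7.90 to 156 ± 20.2 CPM (-0.20, adjusted p = 0.0447 by edgeR; SD, n = 4). Both were lower in 4 of 4 mice, with overlapping groups, and both lost their call without mouse in the model (adjusted p = 0.144 and 0.217 by edgeR). Genes called in this list numbered 5 without mouse 1, 1 without mouse 2, and 0 without mouse 3 or 4. *Srebf1*, the LXR target that drives fatty acid synthesis, had 85.9 CPM in vehicle and 86.3 CPM in bilirubin cultures. It is named outside the rule for named genes, after its values were seen.

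Of 14 receptor partners and coregulators 13 were tested, 0 were called as higher and 3 as lower, with a median log2 fold change of -0.06. *Rxra*, the RXR partner of LXR, had 163, 165, 156 and 159 CPM in vehicle and 162, 136, 132 and 131 CPM in bilirubin cultures. Mouse 1 did not share the difference, and the log2 fold change of -0.20 had an adjusted p of 0.0499 by edgeR. The coactivator *Ncoa3* had the same shape, with -0.02 in mouse 1 and -0.23 to -0.33 in the other three (log2 fold change -0.22, adjusted p = 0.0415 by edgeR). In this list 0 genes were called without mouse 2, 3 or 4.

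Sterol transport, esterification and efflux had 15 of 16 genes tested, 1 called as higher and 1 as lower, with a median log2 fold change of -0.02. *Cav1*, encoding the cholesterol-binding coat protein of caveolae, had 81.3, 91.1, 109 and 78.4 CPM in vehicle and 169, 248, 305 and 328 CPM in bilirubin cultures. Every bilirubin culture was above every vehicle culture, and the log2 fold change was 1.51 (SE 0.13; adjusted p = 3.98e-04, edgeR). *Nceh1*, a cholesteryl ester hydrolase, went from 511 ± 7.37 to 460.2 ± 21.7 CPM (-0.15, adjusted p = 0.0364 by edgeR; SD, n = 4).

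Oxysterol metabolism and sensing, the setting of *Ch25h*, had 5 of 9 genes tested and 0 called by edgeR, with 2 at an unadjusted p under 0.05. DESeq2 called 1, *Insig1*, and limma called 1 other gene. By edgeR the count was 1 with DESeq2 size factors or a CPM filter, and 2 with library size alone, no filter or without mouse 1. *Insig1*, which retains the sterol sensor in the endoplasmic reticulum, had a log2 fold change of -0.22 (lower in 4 of 4 mice, adjusted p = 0.0648 by edgeR and 0.00932 by DESeq2). *Gpr183*, the receptor for oxysterols made from the CH25H product, is named outside the rule and had 38.8 to 42.7 CPM in vehicle and 33.6 to 37.6 CPM in bilirubin cultures (log2 fold change -0.20, adjusted p = 0.0514 by edgeR). *Hsd3b7*, which acts on oxysterols in bile acid synthesis, had 81.9 and 83.8 CPM.

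Among lipoprotein receptors 7 of 9 were tested, 0 were called as higher and 1 as lower, with a median log2 fold change of -0.02. *Lrp1*, an endocytic receptor that takes up apolipoprotein E, had 4171, 3996, 3906 and 4064 CPM in vehicle and 3689, 3301, 3219 and 3141 CPM in bilirubin cultures. The groups did not overlap, and the log2 fold change was -0.28 (SE 0.04; adjusted p = 0.00305, edgeR).

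Phospholipid acyltransferases other than *Lpcat3*, listed by function, had 8 of 8 genes tested, 2 called as higher and 1 as lower, with a median log2 fold change of 0.06. *Lpcat2* had 24.6, 24.4, 23.3 and 26.1 CPM in vehicle and 47.5, 30.4, 38.4 and 38.2 CPM in bilirubin cultures (log2 fold change 0.64, adjusted p = 0.00408 by edgeR). *Lpcat4* went the other way, from 25.2, 21.6, 21.0 and 23.0 CPM to 17.4, 14.8, 14.6 and 18.0 CPM (-0.49, adjusted p = 0.00184 by edgeR). Neither overlapped between groups. *Mboat1* had a log2 fold change of 0.27 (adjusted p = 0.0427 by edgeR) with overlapping groups.

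All 19 sterol synthesis genes were tested and 0 were called by edgeR, with 3 at an unadjusted p under 0.05, and DESeq2 and limma also called 0. By edgeR the count was 2 with no filter and 2 without mouse 1. In mouse 1 all of these genes but *Mvk* (log2 difference 0.16) were lower with bilirubin, down to -0.68 for *Cyp51*. Mice 2 to 4 did not share this, with 0.10, -0.14 and 0.07 for *Cyp51* and 0.10, 0.06 and 0.15 for *Sqle* (-0.41 in mouse 1). The cause was not tested. The median log2 fold change was -0.03. *Srebf2*, the transcription factor of the pathway, had 292 and 291 CPM (log2 fold change -0.0075, adjusted p = 0.941 by edgeR). A further list held 13 genes, the enzyme gene *Lcat* and other apolipoprotein genes such as *Apoa1*, *Apob* and *Clu*. None of them had enough counts to be tested.

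Over the 8 libraries the genes with log2 CPM most like that of *Apoe*, among 10905 expressed genes, were *Arsb* (Pearson r = 0.997), *Dgkz* (0.994), *Qsox1* (0.988), *Mef2c* (0.985) and *Cx3cr1* (0.984). Those most like *Ch25h* were *Sema4c* (0.983), *Sh2b3* (0.982), *Qpct* (0.980), *Thsd1* (0.979) and *Fam98c* (0.972). All 10 were lower with bilirubin, from a log2 fold change of -0.12 for *Qsox1* to -1.02 for *Cx3cr1*, a chemokine receptor. That direction follows from the choice of these genes, since *Apoe* and *Ch25h* were lower with bilirubin in every mouse. The correlation coefficients are descriptions, since all genes share the same 8 libraries and the same treatment split.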

How the data were processed

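RNA of 8 BMDM cultures was sequenced. The authors trimmed reads (Trim Galore 0.6.7, Cutadapt 3.4), aligned them with STAR 2.7.9a to GRCm39 and quantified transcripts with Salmon 1.10.1. The authors deposited estimated counts per gene without scaling, and estimated counts, TPM and effective lengths per transcript of each library. A deposited transcript-to-gene map assigned transcripts to genes for gene TPM, transcript shares, the length offset and the choice of each most abundant transcript. Replicates were not pooled.

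Counts were rounded and compared in R 4.3.3 with edgeR 4.0.16 (filterByExpr with at least 10 counts, 15 in total; TMM; quasi-likelihood test; mouse and treatment in the model; Benjamini-Hochberg over 13722 genes; threshold 0.05). Standard errors are the log2 fold change over the square root of F. Log2 CPM used a prior count of 2. Depth was 34142781 to 47071714 counts per library, and a gene at 3 counts or fewer was treated as at the floor. Gene TPM are sums over transcripts. The procedure was tested on simulated counts with known changes of a single size, made without differences between mice. That test does not bear on the mouse term or on differences smaller than those implanted.

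Pairs come from the culture number in the labels, which do not name a mouse. Reading that number as the mouse follows the authors, who used the mouse identifier as a covariate. Deviations from group means correlated at 0.0862 on average within a mouse (-0.0053 to 0.134) and at -0.0279 between mice (-0.16 to 0.0751). These ranges overlap, so the correlations do not settle the pairing. Alternatives were no mouse term, DESeq2 1.42.0, limma 3.58.1 voom, DESeq2 size factors, library size alone, no filter, CPM above 1 in 4 libraries, a transcript-length offset, and leaving out 1 mouse at a time.

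The 10 genes and all lists were chosen with earlier results of these data known. Named were the 10 genes, up to 4 called genes of each list by adjusted p (or, with 0 called, the 2 most expressed), neighbours of *Apoe*, and the 5 genes most correlated with *Apoe* and with *Ch25h*. Positions and sequences are from GRCm39 with GENCODE vM39, a later annotation than the one quantified, and the limit of 3 mismatches was chosen after seeing the windows. The results of 2 genes that the rule would name are not reported here, and raw reads were not analysed.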

Additional observations from a re-analysis of the deposited data

Results flagged for a closer look

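In 50 groups of 4 values (levels and mouse differences of the named genes), the highest or lowest value was set against the range of its group by Dixon's criterion at 95%, which chance alone passes in about 1 in 20 groups, and 4 groups passed. The log2 difference of *Abcg1* in mouse 1, 0.59, stood apart from the other three, near 0. The *Mylip* level of the bilirubin culture of mouse 2, 36.5 CPM, stood above the others, and the vehicle culture of that mouse was the highest of its group. Mouse 1 also stood apart for *Rxra*, with a log2 difference of -0.0076. For *Lpcat4* mouse 4 stood apart, with -0.35. Of the 4, 2 are differences of mouse 1, the mouse with the deepest and the shallowest library, and a cause was not tested.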

How the results depend on the processing

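Over the 12 alternatives the log2 fold change ranged over -1.03 to -0.90 for *Apoe*, -0.73 to -0.61 for *Apoc2*, 1.02 to 1.36 for *Abca1*, -1.65 to -1.43 for *Ch25h* and 0.40 to 0.45 for *Nr1h3*. These ranges describe genes chosen on this contrast and are no sign of stability. *Abcg1* was near 0 without mouse 1 and *Lpcat3* with the length offset. Genes called over the whole table, 1033, were 686 without mouse as a replicate block, 1692 with no filter, 579 with the length offset, and 377 to 1910 with a mouse left out. Pathway genes called, 11, were 5 without the block, 19 with no filter, 4 with the length offset, and 3 to 22 with a mouse left out. Leaving out mouse 1 gave the higher ends and leaving out mouse 3 the lower, and the cause was not tested. *Insig1* became called under 4 alternatives. Depth limits *Apoc1*, for which no difference could be measured.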
